A study of Mus musculus with 12 samples.

Results

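The genes described here are the cyclins that drive mitosis and meiosis, Ccna1, Ccna2, Ccnb1, Ccnb2, Ccnd1, Ccnd2, Ccnd3, Ccne1 and Ccne2, together with Cdk1. They were taken from the testis gene table by exact symbol. All 10 were among its 20718 genes, and all 10 were among the 16296 genes that had enough reads to be tested. The study asked what a long non-coding RNA, lncRNA5251, does in mouse spermatogenesis. Testis RNA was sequenced from IRC mice (strain as spelled in the labels) in 4 groups of 3 libraries. F0_5251KD testes received a knockdown lentivirus made in the LV3 vector with shRNAs against lncRNA5251, and F0_3NC testes received the negative control virus of the same vector. F0_5251OV testes received an overexpression lentivirus made in the LV5 vector, and F0_5NC testes received the LV5 vector without an insert. All animals were males injected in the testis when young, mated as adults and then collected, so each control carried a virus too. It is not stated whether each library is a different animal, so the p-values measure the spread between libraries, which may be technical. The level of lncRNA5251 itself was not analysed here.

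Cyclins bind and switch on cyclin-dependent kinases, and are destroyed again by ubiquitin ligases as each phase of the cell cycle ends. D cyclins act with Cdk4 and Cdk6 in G1, E cyclins act with Cdk2 at the entry into S phase, and A and B cyclins act with Cdk2 and Cdk1 up to and through division. The testis runs both kinds of division side by side: spermatogonia divide by mitosis, and spermatocytes pass a long prophase and then the meiotic divisions. Ccna1 is the cyclin A of male meiosis, whereas Ccna2 is the cyclin A of mitotic cells.

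The genes lie apart in the genome. On GRCm38.p6, Ccna2 spans chr3:36564865-36573038 and Ccna1 spans chr3:55045469-55057634, Ccnb2 lies at chr9:70407689-70421554 and Ccnb1 at chr13:100778739-100786486, and Cdk1 lies at chr10:69335146-69352912. The D cyclins lie at chr7:144929931-144939831 (Ccnd1), chr6:127125162-127152188 (Ccnd2) and chr17:47505051-47599689 (Ccnd3), and the E cyclins at chr7:38097984-38107490 (Ccne1) and chr4:11190433-11204779 (Ccne2). RefSeq promoters were at hand for 6 of the 10 genes. Those of Ccnb1, Ccnb2, Cdk1 and Ccna1 are shown, because these 4 genes of late cell cycle or meiosis varied little between the groups, and because the first 3 share a repeated element. Each runs from 220 bases before to 30 bases after the RefSeq start, 5′ to 3′ on the gene's strand, which is the minus strand for all 4. Capitals mark CCAAT and TTTGAA on either strand, so CCAAT on the opposite strand reads ATTGG. The factor NF-Y binds CCAAT, and TTTGAA is a form of the cell cycle genes homology region, where the DREAM and MuvB complexes bind. Other forms of that region were not searched for.
Ccnb1, chr13:100786457-100786706: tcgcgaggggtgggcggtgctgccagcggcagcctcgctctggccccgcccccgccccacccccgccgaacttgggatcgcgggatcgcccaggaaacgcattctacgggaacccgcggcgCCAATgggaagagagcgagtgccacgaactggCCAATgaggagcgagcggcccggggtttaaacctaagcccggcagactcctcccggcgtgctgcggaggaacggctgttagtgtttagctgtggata
Ccnb2, chr9:70421525-70421774: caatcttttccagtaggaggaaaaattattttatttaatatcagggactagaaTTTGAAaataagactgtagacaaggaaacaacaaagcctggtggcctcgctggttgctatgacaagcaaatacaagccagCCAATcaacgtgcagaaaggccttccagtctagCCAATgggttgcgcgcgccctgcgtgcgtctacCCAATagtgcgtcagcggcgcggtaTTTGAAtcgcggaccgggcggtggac
Cdk1, chr10:69352883-69353132: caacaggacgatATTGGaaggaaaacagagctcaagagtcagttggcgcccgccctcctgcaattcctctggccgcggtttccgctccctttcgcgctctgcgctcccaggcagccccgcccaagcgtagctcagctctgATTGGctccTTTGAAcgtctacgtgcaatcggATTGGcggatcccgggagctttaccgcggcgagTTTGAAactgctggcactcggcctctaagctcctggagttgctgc
Ccna1, chr3:55055026-55055275, a start inside the annotated gene: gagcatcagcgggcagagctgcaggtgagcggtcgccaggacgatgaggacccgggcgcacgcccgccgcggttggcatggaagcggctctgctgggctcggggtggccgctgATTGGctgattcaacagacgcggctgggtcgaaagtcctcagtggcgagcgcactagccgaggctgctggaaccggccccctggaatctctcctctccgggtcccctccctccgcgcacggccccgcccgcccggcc
Ccnb2 held CCAAT 3 times, at 87, 54 and 21 bases before the start, and TTTGAA 2 times, at 167 bases before and 5 bases after it. Cdk1 held CCAAT 3 times on the opposite strand, at 208, 80 and 48 bases before the start, and TTTGAA 2 times, at 71 and 15 bases before it. Ccnb1 held CCAAT 2 times, at 99 and 67 bases before the start, and no TTTGAA. Ccna1 held 1 CCAAT, on the opposite strand. Of the promoters not shown, the second of Ccnd3 held 1 CCAAT, and the first of Ccnd3 and that of Ccne1 held none. Ccna1, Ccnd3 and Ccne1 held no TTTGAA. Of all 32851 promoters cut to this length, 33.5% held CCAAT and 15.2% held TTTGAA. The letters bound by Myb proteins, TAACNG, were in 19.7% of all promoters and among the 6 genes were in Ccnb1 alone. GGGCGG, the GC box bound by Sp1, was in 33.8% of all promoters and in the promoters of all 6 genes, Ccnd3 and Ccne1 included. Matches of different motifs did not overlap. These matches describe the letters and say nothing of binding in these testes.

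The 12 libraries held between 15431383 and 16355720 estimated counts each. The tissue label was checked against marker genes. The protamine and transition protein genes of elongated spermatids had the highest levels of these markers, with median RPKM values (reads scaled to gene length and library total) of 11539 for Prm1 and 6531 for Tnp1, and Sycp3 of spermatocytes had a median of 191.0 RPKM, so testis germ cells were present in every library. Library F0_5NC replicate 1 stood apart. Of 15 Sertoli cell markers, 14 were highest in it, their summed level was 1187 RPKM against 601 to 815 RPKM in the other libraries, and 8 of 12 round spermatid markers were lowest in it. Libraries F0_3NC replicate 2 and F0_5251OV replicate 1 had the highest summed levels of 15 spermatocyte markers, 1136 and 1134 RPKM against 976 to 1066 RPKM in the rest. Epididymis markers, of which 3 of 5 were in the table, also differed between libraries. They summed to 8.57, 73.1 and 75.5 RPKM in F0_5NC, to 53.3, 37.2 and 0.28 RPKM in F0_5251OV, to 0.38 to 5.04 RPKM in F0_3NC and to 0.39 to 0.53 RPKM in F0_5251KD, with Crisp1 making up most of the higher sums, and their part in the values of F0_5NC and F0_5251OV given here was not tested. In RNA of a whole testis, fewer cells of a type and less RNA per cell cannot be told apart.

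The 10 genes covered a wide range of levels, and the order was led by genes of late cell cycle and meiosis. Ccnb2, a B cyclin and partner of Cdk1, was highest, with a median of 97.7 RPKM over the 12 libraries (89.1 to 102.0), above 94.1% of all genes in the table. Ccna1 followed with 84.5 RPKM (74.3 to 92.9), Ccnd3 with 62.8 RPKM (47.0 to 76.6) and Ccnb1 with 33.3 RPKM (31.95 to 36.7). Ccne2 and Cdk1 were in the middle, at 12.3 RPKM (10.8 to 17.4) and 12.2 RPKM (10.9 to 13.2). Ccne1 was at 3.20 RPKM (1.99 to 4.15), Ccna2 at 3.03 RPKM (2.40 to 3.36), Ccnd1 at 1.52 RPKM (0.86 to 1.93) and Ccnd2 at 1.23 RPKM (0.75 to 3.18). Ccnb2, Ccna1, Ccnd3 and Ccnb1 together made up a median of 93.1% of the summed RPKM of the 9 cyclins (89.7% to 93.7%).

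**Figure D1:**
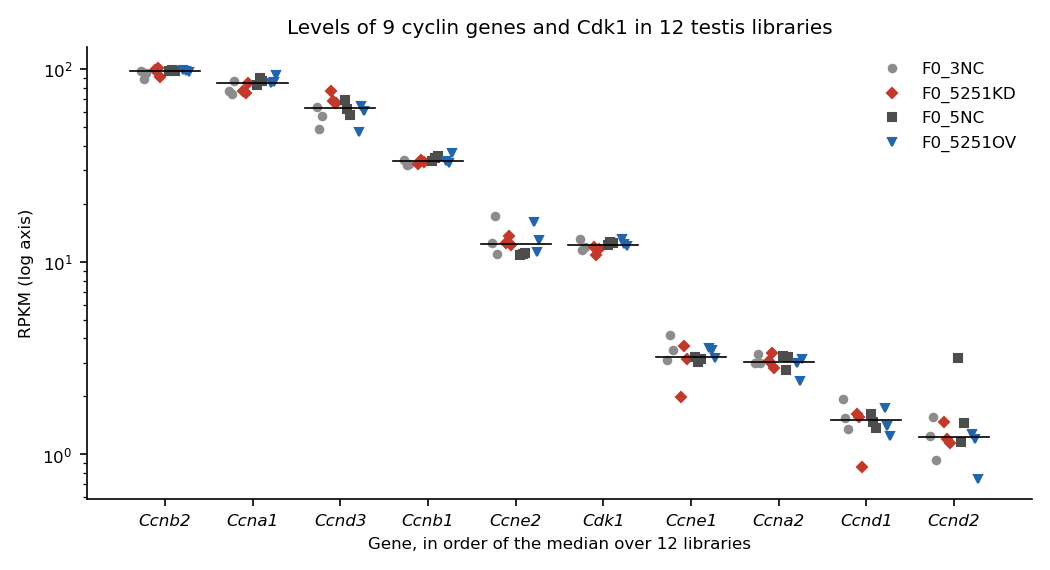
RPKM on a log axis for the 10 genes, 1 point per library, with groups by colour and symbol and the median over 12 libraries as a line. The points fall into a high set from Ccnb2 to Ccnb1, a middle pair of Ccne2 and Cdk1, and a low set from Ccne1 to Ccnd2, in every group.

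Some neighbours in this order were separate and some were not. Ccnb2 was above Ccna1, and Ccna1 above Ccnd3, in 12 of 12 libraries, although their ranges over libraries overlapped. The ranges did not overlap at the steps from Ccnd3 to Ccnb1, from Ccnb1 to Ccne2, from Cdk1 to Ccne1 and from Ccna2 to Ccnd1. Ccne2 and Cdk1 could not be ordered: Ccne2 was higher in 6 of 12 libraries. Ccne1 was above Ccna2 in 9 of 12 libraries and Ccnd1 above Ccnd2 in 8 of 12, with overlapping ranges. The 4 highest genes had the same places in each of the 4 groups.

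The genes also differed in how steady they were between libraries of one group. The spread within groups, as a coefficient of variation of RPKM pooled over the 4 groups, was 3.81% for Ccnb2, 4.12% for Ccnb1, 4.77% for Cdk1 and 5.98% for Ccna1. It was 9.82% for Ccna2, 11.4% for Ccnd3, 15.96% for Ccne1, 16.7% for Ccne2, 19.9% for Ccnd1 and 42.8% for Ccnd2. Counting error sets a floor to this spread, and Cdk1 at 1.09 times that floor and Ccna2 at 1.12 times it varied hardly more than counting error alone. Ccnd2 at 4.83 times, Ccnd3 at 4.81 times and Ccne2 at 3.86 times their floor varied most beyond it. The estimated counts of Ccnd1, Ccnd3 and Ccne2 were not whole in any of the 12 libraries, and those of Ccna2 not in 8, as arises when reads are shared out between genes, so the levels of these 4 genes are less certain.

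None of the 10 genes passed the test in any comparison under the edgeR quasi-likelihood test with Benjamini-Hochberg adjustment over all genes. In F0_5251KD against F0_3NC, 0 of 10 passed an adjusted p of 0.05, and 0.0245% of all genes tested did. In F0_5251OV against F0_5NC, 0 of 10 passed, and 0% of all genes did. In F0_3NC against F0_5NC, the comparison of the control viruses, 0 of 10 passed and 0.331% of all genes did. The difference between the knockdown effect and the overexpression effect passed for 0 of 10 genes and 0% of all genes. At an unadjusted p under 0.05, 1 of 10 genes passed in each, against 4.74% of all genes in the knockdown comparison, 8.77% in the overexpression comparison, 11.9% between the controls and 11.3% for the difference of effects. DESeq2 and limma called 0 of the 10 genes as well. These comparisons share libraries, since F0_3NC is in the knockdown comparison and in that of the controls, and F0_5NC in the overexpression comparison and in that of the controls. The vector backbone differs between the control groups, and any batch that went with it cannot be told apart from it.

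**Figure D2:**
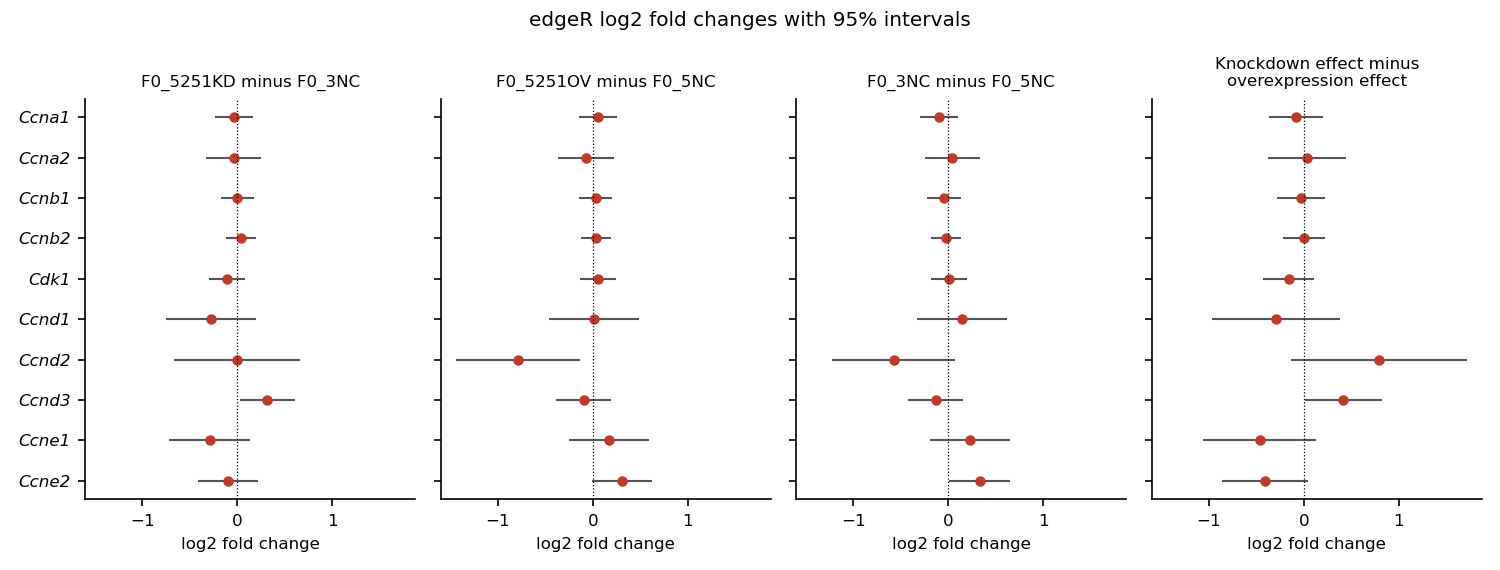
log2 fold changes of the 10 genes from edgeR, with 95% intervals as lines, in the 3 comparisons of groups and for the difference between the knockdown and the overexpression effect. Intervals are narrow around 0 for Ccna1, Ccnb1, Ccnb2 and Cdk1 and widest for Ccnd2, and no gene passed the adjusted threshold.

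Ccnb1 and Ccnb2, the cyclins that take Cdk1 into division, lay close together across the groups. Ccnb2 was at 97.6 ± 5.40 RPKM in F0_5251KD and 94.3 ± 4.74 RPKM in F0_3NC (SD, n = 3), and at 97.8 ± 1.21 RPKM in F0_5251OV and 98.0 ± 1.18 RPKM in F0_5NC. Its log2 fold change was 0.04 for the knockdown (95% interval -0.12 to 0.20) and 0.04 for overexpression (-0.12 to 0.20). The fold changes come from counts rescaled between libraries by edgeR, whereas the RPKM values were not rescaled. Small differences can therefore have opposite signs on the 2 scales, as for Ccnb2 under overexpression. Ccnb1 was at 33.0 ± 0.648 RPKM in F0_5251KD, 32.7 ± 1.04 RPKM in F0_3NC, 34.2 ± 2.22 RPKM in F0_5251OV and 34.5 ± 1.12 RPKM in F0_5NC. The intervals of Ccnb1 ran from -0.18 to 0.17 for the knockdown and from -0.14 to 0.20 for overexpression on the log2 scale. These intervals are among the narrowest of the 10 genes.

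Cdk1, the kinase of division, was at 11.96, 10.86 and 11.61 RPKM in F0_5251KD and at 13.20, 11.50 and 11.99 RPKM in F0_3NC. Its values were 13.11, 12.44 and 12.15 RPKM in F0_5251OV and 12.29, 12.62 and 12.50 RPKM in F0_5NC. The groups overlapped in both comparisons. The log2 fold change was -0.11 (SE 0.09, adjusted p = 0.897) for the knockdown and 0.06 (SE 0.09, adjusted p = 0.861) for overexpression.

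Ccna1, the meiotic cyclin A, was at 76.9, 75.2 and 84.5 RPKM in F0_5251KD and at 77.3, 74.3 and 86.4 RPKM in F0_3NC. It was at 84.5, 85.6 and 92.9 RPKM in F0_5251OV and at 83.0, 90.4 and 86.6 RPKM in F0_5NC. Both pairs of groups overlapped, with log2 fold changes of -0.03 (95% interval -0.23 to 0.17) and 0.05 (-0.14 to 0.25). Ccna2, the mitotic cyclin A, was at 3.07 ± 0.276 RPKM in F0_5251KD, 3.11 ± 0.202 RPKM in F0_3NC, 2.84 ± 0.389 RPKM in F0_5251OV and 3.06 ± 0.289 RPKM in F0_5NC. Its intervals were wider, from -0.33 to 0.25 and from -0.36 to 0.22, on counts of 101.0 to 147.6 per library.

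**Figure D3:**
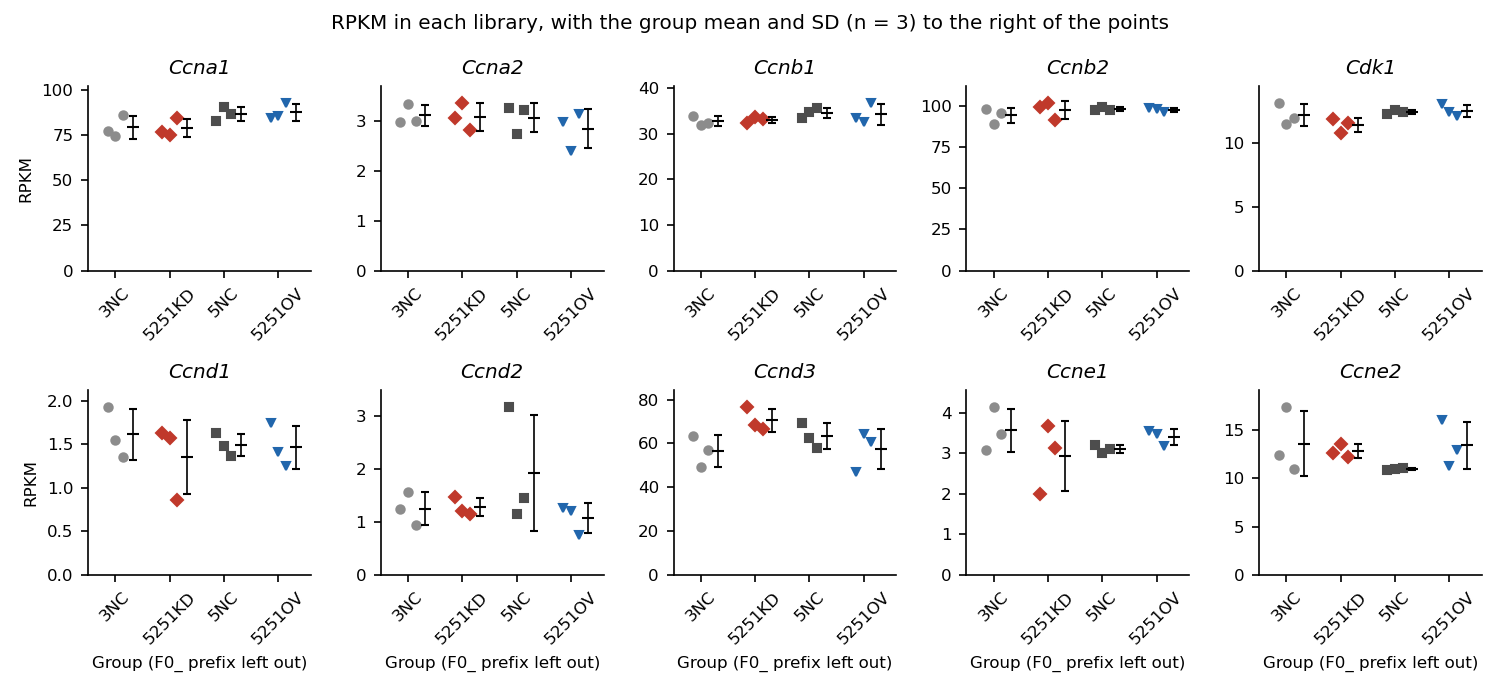
RPKM of each gene by group, 1 point per library, with the group mean and SD (n = 3) beside the points and each axis starting at 0. Ccnd3 is higher in all 3 F0_5251KD libraries than in the F0_3NC libraries, Ccne2 is higher in all 3 F0_5251OV libraries than in the F0_5NC libraries, and 1 F0_5NC library stands above all others for Ccnd2.

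The D cyclins, which link growth signals to the G1 kinases, held the largest values on the log2 scale. Ccnd3 was at 76.6, 68.4 and 66.6 RPKM in F0_5251KD and at 63.3, 49.1 and 57.2 RPKM in F0_3NC. All 3 knockdown libraries were above all 3 control libraries, and 10.9% of all genes tested had groups that did not overlap in this comparison, so 1 of 10 genes is near that background. The log2 fold change was 0.32 (SE 0.13, 95% interval 0.03 to 0.61), with an unadjusted p of 0.0329 and an adjusted p of 0.897 by edgeR. Without F0_3NC replicate 2 it was 0.20 (unadjusted p = 0.139), and without F0_5251KD replicate 1 it was 0.26 (unadjusted p = 0.108).

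Marker sums of other cells also differed between some libraries of the same comparison. The summed level of 10 endothelial markers was 14.3 to 15.97 RPKM in F0_5251KD and 12.8 to 13.1 RPKM in F0_3NC, with all 10 at a positive log2 fold change and a median of 0.24, against -0.00 over all genes tested. The summed level of 12 Leydig cell markers was 2647 to 4404 RPKM against 2612 to 2656 RPKM, and the groups overlapped. Its highest value belonged to F0_5251KD replicate 1. Of 11 Leydig cell markers tested, 8 had a positive and 3 a negative log2 fold change, and Cyp2a4 was at or near 0 in every library. Peritubular smooth muscle markers summed to 294.4 to 303.9 RPKM against 262.8 to 291.7 RPKM, with 8 of 8 at a positive log2 fold change. Actg2, with a median of 214.9 RPKM over the 12 libraries, made up most of these sums, and its log2 fold change was 0.04. Spermatocyte markers were at 978 to 1036 RPKM against 1016 to 1136 RPKM, with 12 of 15 at a negative log2 fold change. Sertoli cell markers were at 713 to 815 RPKM against 601 to 768 RPKM, with 10 of 15 at a positive log2 fold change. None of these markers passed the adjusted threshold, and their part in the Ccnd3 values was not tested.

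Under overexpression Ccnd3 was at 47.0, 64.4 and 60.6 RPKM against 69.5, 62.3 and 57.7 RPKM in F0_5NC, and the groups overlapped (log2 fold change -0.10, SE 0.13). Without F0_5251OV replicate 1 that value was 0.05. The knockdown effect on Ccnd3 minus the overexpression effect was 0.41 on the log2 scale (SE 0.19, unadjusted p = 0.0466, adjusted p = 0.441 by edgeR). Without F0_5251OV replicate 1 this difference was 0.27 (unadjusted p = 0.104), and without F0_3NC replicate 2 it was 0.30 (unadjusted p = 0.114).

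Ccnd2 was at 1.27, 1.20 and 0.75 RPKM in F0_5251OV and at 3.18, 1.16 and 1.45 RPKM in F0_5NC. The first F0_5NC library was far above the rest, and the other two control libraries overlapped with the overexpression libraries. The log2 fold change was -0.79 (SE 0.30, 95% interval -1.45 to -0.14), with an unadjusted p of 0.0216 and an adjusted p of 0.552 by edgeR. Without F0_5NC replicate 1 it was -0.29 (unadjusted p = 0.257). F0_5NC replicate 1 is the library with the raised Sertoli cell markers, and its macrophage markers summed to 120.3 RPKM against 60.5 to 102.2 RPKM in the other libraries. That library also had the highest sums of spermatogonia, Leydig cell and endothelial markers, at 92.5, 4979 and 16.5 RPKM. Over this comparison 15 of 15 Sertoli cell markers had a negative log2 fold change, with a median of -0.28 against -0.00 over all genes tested. So did 11 of 11 Leydig cell markers tested, 9 of 10 endothelial, 9 of 10 macrophage and 7 of 8 peritubular smooth muscle markers. For round spermatid markers, 12 of 12 had a positive value. None of these markers passed the adjusted threshold, and their part in the Ccnd2 values was not tested. In F0_5251KD Ccnd2 was at 1.47, 1.21 and 1.15 RPKM and in F0_3NC at 1.25, 1.56 and 0.94 RPKM, and the log2 fold change was -0.00 with a wide interval of -0.66 to 0.66.

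Ccnd1 was at 1.63, 1.57 and 0.86 RPKM in F0_5251KD and at 1.93, 1.55 and 1.36 RPKM in F0_3NC. The groups overlapped, and the log2 fold change of -0.28 (95% interval -0.76 to 0.20) rested on counts of 49.4 to 111.3 per library. It was -0.04 without F0_5251KD replicate 3 and -0.13 without F0_3NC replicate 1. In F0_5251OV it was at 1.47 ± 0.250 RPKM and in F0_5NC at 1.49 ± 0.131 RPKM.

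The E cyclins, which open S phase with Cdk2, are also active in meiotic prophase. Ccne2 was at 16.03, 11.22 and 12.98 RPKM in F0_5251OV and at 10.83, 10.95 and 11.08 RPKM in F0_5NC. The overexpression libraries were all above the control libraries, as groups were apart for 13.1% of all genes tested, and 1 of 10 genes is near that share. The log2 fold change was 0.31 (SE 0.15, 95% interval -0.01 to 0.63, adjusted p = 0.574). Without F0_5251OV replicate 1 it was 0.18. Between the controls, where 0 of 10 genes and 15.9% of all genes had groups that did not overlap, Ccne2 was at 12.5, 17.4 and 10.9 RPKM in F0_3NC and had a log2 fold change of 0.33 against F0_5NC (SE 0.15, unadjusted p = 0.0440, adjusted p = 0.410). Without F0_3NC replicate 2 it was 0.15 (unadjusted p = 0.285). Under the knockdown it was at 12.6, 13.6 and 12.2 RPKM, within the range of F0_3NC.

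Ccne2 and Ccnd3 stood apart in the same libraries. F0_3NC replicate 2 and F0_5251OV replicate 1 held the highest Ccne2 levels of all 12 libraries and the lowest Ccnd3 levels, 49.1 and 47.0 RPKM. These are the libraries with the highest spermatocyte marker sums, and 13 of 15 and 10 of 15 of those markers were above the median of the other libraries in them. That count was also 11 of 15 in F0_5NC replicate 1, which had the lowest Ccne2 level, 10.83 RPKM, and Ccnd3 at 69.5 RPKM. In F0_3NC replicate 1 it was 10 of 15, with Ccne2 at 12.5 RPKM and Ccnd3 at 63.3 RPKM. Elongated spermatid markers summed to 39939 RPKM in F0_3NC replicate 2 and 42818 RPKM in F0_5251OV replicate 1, within or below the range of 42006 to 49350 RPKM in the rest. Sertoli cell markers had their lowest sums in F0_3NC replicate 2 and F0_5251OV replicate 1, 601 and 613 RPKM. Their highest sums were 1187 RPKM in F0_5NC replicate 1 and 815 RPKM in F0_5251KD replicate 1, the libraries with the highest Ccnd3 levels. The next highest, 768 RPKM, was in F0_3NC replicate 1. Over 12 libraries the log2 levels of Ccne2 and Ccnd3 had a Pearson r of -0.63, given as a description, since libraries share their depth scaling and these libraries weigh heavily. The pair was singled out after its values were seen, and the part of the markers in it was not tested.

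**Figure D4:**
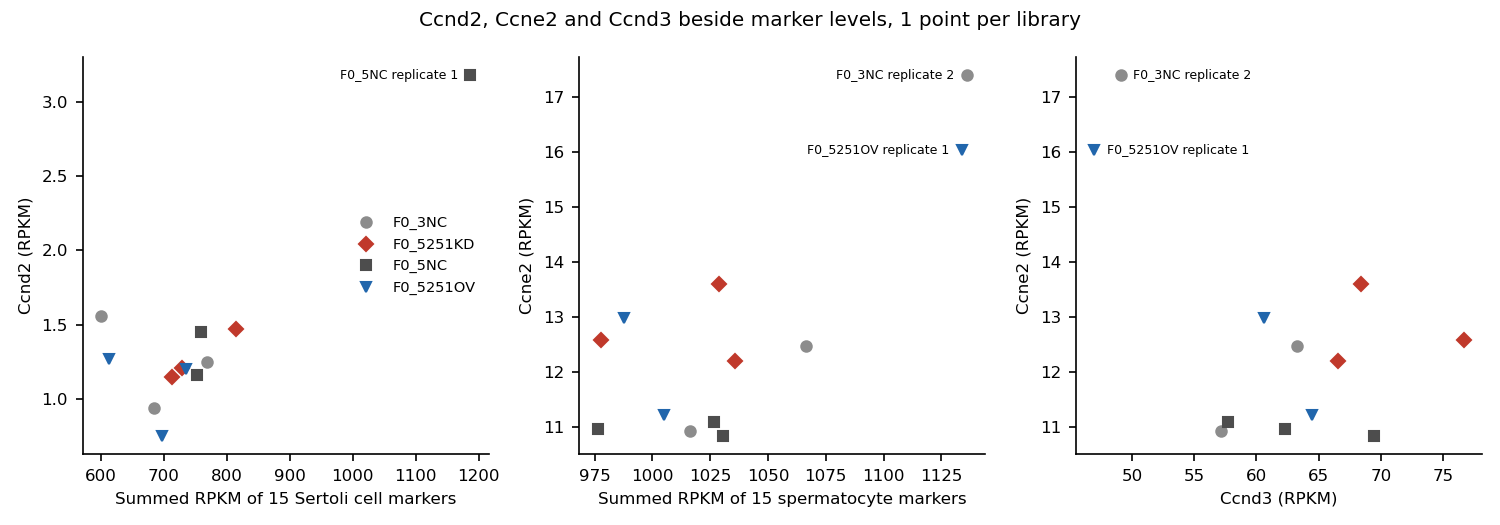
RPKM of Ccnd2 against the summed RPKM of 15 Sertoli cell markers, of Ccne2 against that of 15 spermatocyte markers, and of Ccne2 against Ccnd3, 1 point per library, with axes that do not start at 0. F0_5NC replicate 1 is alone at 3.18 RPKM of Ccnd2 and 1187 RPKM of Sertoli markers, and F0_3NC replicate 2 and F0_5251OV replicate 1 have the highest Ccne2 and the lowest Ccnd3.

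Ccne1 was at 1.99, 3.67 and 3.14 RPKM in F0_5251KD and at 3.08, 4.15 and 3.48 RPKM in F0_3NC. Its log2 fold change was -0.29 (95% interval -0.71 to 0.13). The first knockdown library was the lowest of all 12, and without it the value was -0.07. In F0_5251OV it was at 3.41 ± 0.202 RPKM against 3.11 ± 0.10 RPKM in F0_5NC, with a log2 fold change of 0.18 (95% interval -0.25 to 0.60).

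Apart from the effect of the 0.1 added to each RPKM value, ratios of related cyclins within a library do not depend on scaling between libraries. That effect is largest at the low levels of Ccnd1 and Ccnd2. The log2 ratio of Ccnb2 to Ccnb1 was the steadiest, from 1.39 to 1.62 over the 12 libraries, on log2(RPKM + 0.1). That of the meiotic Ccna1 to the mitotic Ccna2 lay between 4.43 and 5.10, with means of 4.64 ± 0.211 in F0_5251KD, 4.63 ± 0.185 in F0_3NC, 4.91 ± 0.169 in F0_5251OV and 4.78 ± 0.192 in F0_5NC (SD, n = 3). Ccne2 to Ccne1 ranged from 1.62 to 2.60, Ccnd3 to Ccnd2 from 4.41 to 6.16 and Ccnd1 to Ccnd2 from -0.92 to 0.67. The 15 comparisons of these ratios were put to a two-sided exact permutation test. Its smallest possible p is 0.1 with 3 libraries a group, so none could fall under 0.05 and no conclusion is drawn from it. The smallest exact p was 0.2, for Ccnd1 to Ccnd2 in F0_5251OV against F0_5NC (difference 0.66) and in F0_3NC against F0_5NC (0.58), with an adjusted p of 0.692 for both. Without F0_5NC replicate 1, where the ratio was -0.92, these differences were 0.31 and 0.23.

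The other genes of the pathway were taken from 6 lists of 99 genes: further cyclins, cyclin-dependent kinases, their inhibitors, regulators of Cdk1 activity, the machinery that degrades cyclins, and the Rb, E2F and Myb factors. Of 98 tested, 0 passed the adjusted threshold in any comparison by edgeR. Without adjustment (p under 0.05), 2 stood higher and 2 lower in F0_5251KD than in F0_3NC, 3 higher and 1 lower in F0_5251OV than in F0_5NC, and 3 higher and 4 lower in F0_3NC than in F0_5NC. For the difference of effects, 5 had a positive and 4 a negative value at that threshold. These are 4.08%, 4.08%, 7.14% and 9.18% of the genes, below the shares of 4.74%, 8.77%, 11.9% and 11.3% over all genes tested. Their median log2 fold changes were -0.02, 0.03, 0.00 and -0.04 in the same order, beside -0.00, -0.00, 0.00 and 0.00 over all genes tested.

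Under overexpression the smallest p belonged to Fbxo43, which encodes an inhibitor of the anaphase-promoting complex, the ligase that ends cyclin B. It was at 16, 15.63 and 10.97 RPKM in F0_5251OV and 9.32, 8.75 and 11.4 RPKM in F0_5NC, with a log2 fold change of 0.51 (SE 0.13, unadjusted p = 0.00125, adjusted p = 0.468). The groups overlapped through the lowest overexpression library and the highest control library. Aurkc, the Aurora kinase of meiosis, was at 19.4, 21.7 and 23.3 RPKM against 14.7, 16.41 and 16.6 RPKM, without overlap (log2 fold change 0.40, SE 0.12, adjusted p = 0.536). Cdkn1a, the p21 inhibitor of cyclin-dependent kinases, was at 4.39, 4.84 and 4.69 RPKM against 7.66, 4.92 and 5.85 RPKM (log2 fold change -0.35, SE 0.15, adjusted p = 0.552), with its highest value in F0_5NC replicate 1. For Cdk5, a kinase known best from neurons, it was -0.31 (SE 0.16, adjusted p = 0.595), and its level of 15.1 RPKM in F0_5NC replicate 1 was the highest of all 12 libraries. Without F0_5NC replicate 1 the log2 values of Cdkn1a and Cdk5 were -0.21 and -0.13, and those of Fbxo43 and Aurkc were 0.42 and 0.30.

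Under the knockdown Cdk14, a kinase that works with cyclin Y, was at 5.79, 5.91 and 7.34 RPKM in F0_5251KD and at 7.42, 8.66 and 7.88 RPKM in F0_3NC. The groups did not overlap, and the log2 fold change was -0.34 (SE 0.12, unadjusted p = 0.0141, adjusted p = 0.897). For Cdk6, a partner of the D cyclins, the log2 value was -0.26 (SE 0.12, adjusted p = 0.897), at 0.990 ± 0.101 RPKM against 1.18 ± 0.078 RPKM. Anapc7 and Anapc2, subunits of the anaphase-promoting complex, had values of 0.27 (SE 0.11) and 0.21 (SE 0.09) on that scale, both with an adjusted p of 0.897. In F0_3NC against F0_5NC the log2 value of Cdk14 was 0.44 (SE 0.12, adjusted p = 0.237) and that of Ccnl1, a cyclin of RNA processing, was 0.25 (SE 0.09, adjusted p = 0.346), whereas for Anapc2 the value was -0.27 (SE 0.09, adjusted p = 0.316) and for Cdk4 it was -0.27 (SE 0.10, adjusted p = 0.356). Cdk4 was at 26.3 RPKM in F0_5NC replicate 1 and at 20.3 RPKM in both other F0_5NC libraries, and without that library its value was -0.18. Without F0_3NC replicate 2 the value of Ccnl1 between the controls was 0.15, and that of Anapc2 under the knockdown was 0.13. For the difference of effects the smallest p values belonged to Cdk14 (-0.63, SE 0.17, adjusted p = 0.388) and Fbxo43 (-0.60, SE 0.18, adjusted p = 0.394) among the negative values and to Anapc7 (0.46, SE 0.16, adjusted p = 0.403) and Cdk18 (0.44, SE 0.19, adjusted p = 0.424) among the positive ones. Without F0_3NC replicate 2 the value of Cdk18 was 0.29.

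For each gene the profiles most like it over the 12 libraries were looked up among 15157 other genes that averaged 1 CPM (counts scaled to the library total) or more, by Pearson r of log2 CPM. These are the highest of many values and are given as a description. Ccnd2 was followed most closely by Stk24 (r = 0.97) and Ctnna1 (0.95), and Ccnd3 by Itga11 (0.97) and Mrpl4 (0.96). Ccnb1 was followed by Spag5 (0.92) and Dand5 (0.92), Ccnb2 by Smad6 (0.94) and Fcf1 (0.93), and Ccna1 by Elp5 (0.93) and 4933407O12Rik (0.93). For Ccne2 they were 4930522H14Rik (0.96) and Ireb2 (0.96), for Ccne1 Tmem237 (0.89) and LOC108168658 (0.88), and for Cdk1 Stap1 (0.94) and Tm4sf4 (0.84). For Ccna2 they were Cldn12 (0.87) and Skap2 (0.86), and for Ccnd1 Tmem254b (0.88) and LOC108168596 (0.86). After the mean of each group was taken off, these r values lay between 0.78 and 0.98. Among the genes themselves, Ccnb1 had an r of 0.75 with Ccna1, 0.62 with Ccnb2 and 0.50 with Cdk1, and -0.68 with Ccnd2.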

How the data were processed

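Testis messenger RNA was selected with oligo(dT), primed with random hexamers, sequenced on an Illumina instrument and aligned with SOAPaligner by the authors (build mm10 per the labels). No strand step is named, so reads of opposite strands cannot be told apart. The authors deposited 1 table of 20718 genes with estimated counts and expression values per library. The names of the expression columns give no unit, and the values were taken as RPKM, the unit in the authors' methods. A fractional part (over 1e-06) was present in 11.96% of the estimated counts, which were rounded. The table has 18 further value columns that were matched to no sample, and these, like the authors' averages, were not used.

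edgeR 4.0.16 in R 4.3.3 (TMM, filterByExpr, quasi-likelihood F test, two-sided) was fitted to all 12 libraries with 4 groups, and p-values were adjusted over 16296 genes with the Benjamini-Hochberg method (threshold 0.05). The scripts were tested on simulated data. Members and gene lists were chosen with earlier results of these data known. All 10 members are named, and from the pathway lists each gene past the threshold and the 2 smallest p-values in each direction. Alternatives were DESeq2 1.42.0, limma 3.58.1 on log2(RPKM + 1) and log2(RPKM + 0.1), upper-quartile scaling, other filters, groups compared alone, a replicate block and leaving out each library. Depth was 15431383 to 16355720 counts per library, and counting error is a floor to each gene's precision. Promoters are from RefSeq (GRCm38.p6).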

Additional observations from a re-analysis of the deposited data

How the results depend on the processing

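No cyclin or Cdk1 was called under any alternative, with a smallest adjusted p of 0.308, and 68 of 610 log2 fold changes took another sign, none of them among values at least 0.15 from 0. Counts over all genes moved more. In F0_5251KD against F0_3NC, 4 genes passed, against 20 with DESeq2, 2 with limma on log2(RPKM + 1), 0 with log2(RPKM + 0.1), 2 with the replicate block and 0 to 4 with each library left out. In F0_5251OV against F0_5NC, 0 passed (1429 at an unadjusted p under 0.05), against 30 with DESeq2, 3 without a filter, 3 with the groups alone and 0 to 1 with a library left out. Between the controls, 54 passed, against 138 with DESeq2 and 30 to 54 with a library left out. For the difference of effects, 0 passed (1842 unadjusted), against 35 with DESeq2, 1 with limma on log2(RPKM + 1) and 0 to 1 with a library left out. The cause was not tested. Replicate numbers did not pair libraries (correlations of deviations -0.173 to 0.065). In F0_5NC alone, 6 of 10 genes kept their place in the order of levels. Leaving out libraries for the pathway genes was added after seeing the data. Of 105 ratio differences, 7 moved by more than the spread or changed sign. Counts of 49.4 to 292.0 limit Ccnd1, Ccnd2, Ccne1 and Ccna2.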
